A study of Mus musculus with 6 samples.

Results

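The genes described here carry and restrain the signal of interleukin-6 type cytokines. They are the receptor genes Il6ra and Il6st, the kinase genes Jak1 and Jak2, the transcription factor gene Stat3, the feedback inhibitor genes Socs3 and Socs2, and the response factor genes Cebpb, Cebpd and Junb. They are 10 of the 8252 genes named on the array. All probe sets that the platform annotation gives to these 10 genes were taken, 15 in number out of 12488 on the array, and 13 of them were bright enough to be tested. The genes were chosen by their role and with their CF minus control differences in these arrays already known, so the differences of these 10 genes are given as a description, with no test.

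Pancreatic RNA was measured on 6 one-colour Affymetrix oligonucleotide arrays, each with the RNA of 1 mouse. Of these mice, 3 were CFTR-/-, called CF here, and lacked the epithelial anion channel whose loss causes cystic fibrosis, and 3 were CFTR+/+ controls. Both groups were male, gastrin+/- (a single working allele of the gastrin gene), 56 to 58 days old, on a background of 95% black6 and 5% 129Sv, and had been given the liquid diet Peptamen since day 10 of life against obstruction of the gut. The values are intensities, which have no unit and are comparable between arrays for a given probe set, not between probe sets. The 3 arrays of each group limit the precision of every value. Only 1 label, that of control replicate 1, says that the whole organ was used.

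In this pathway a cytokine such as interleukin-6 binds its own receptor chain, encoded by Il6ra, and the complex draws in gp130, the shared signalling chain encoded by Il6st. Kinases of the JAK family bound to gp130 then phosphorylate STAT3, which enters the nucleus and switches on genes that include Socs3, whose product binds gp130 and JAK and ends the signal. In the pancreas this pathway is known from acinar cells under injury, where STAT3 drives secreted lectins of the Reg family.

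Across the arrays, Socs3 and Junb had the largest differences of the 10 genes, with all 3 CF values above all 3 control values on the probe sets 162206_f_at and 102362_i_at. Cebpd, Socs2 and 1 of the Stat3 probe sets were also higher in CF without overlap, by less. The kinases and the shared receptor chain overlapped between the groups, and the brighter Jak2 probe set was the only 1 of the 13 tested with a lower mean in CF. In RNA of a whole organ, fewer cells of a type and less RNA per cell cannot be told apart. On the second Socs3 and the second Jak2 probe set, too dim to be tested, all CF values also lay above all control values. On the brighter Junb probe set, 102363_r_at, the difference was smaller (1.03 ± 0.38) and the groups overlapped.

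**Figure D1:**
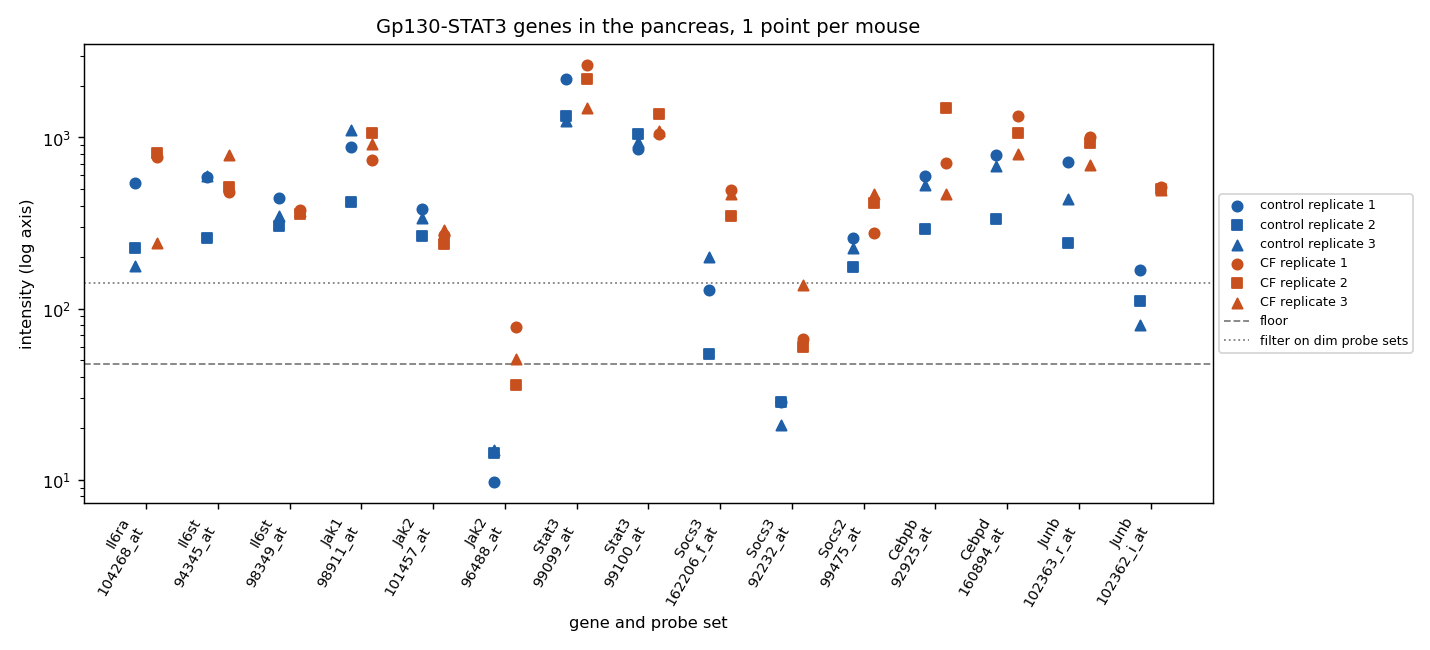
Intensity (log axis) of all 15 probe sets of the 10 genes on the 6 arrays, 1 point per mouse, with the floor of 47.6 and the filter value of 140.2 as lines. Socs3 162206_f_at and Junb 102362_i_at show 3 CF points above 3 control points, and the second Socs3 and second Jak2 probe sets lie below the filter value on all arrays.

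The promoters of Socs3 and Junb are shown because these 2 genes had the largest differences. The windows come from RefSeq, build GRCm38.p6, and run from 250 bases before to 50 bases after the annotated start, with the Socs3 window at chr11:117969317-117969616 and the Junb window at chr8:84978699-84978998, both on the minus strand. Capitals mark the only match to a searched motif, TTCTTAGAA, which fits the STAT motif TTCNNNGAA.
Socs3: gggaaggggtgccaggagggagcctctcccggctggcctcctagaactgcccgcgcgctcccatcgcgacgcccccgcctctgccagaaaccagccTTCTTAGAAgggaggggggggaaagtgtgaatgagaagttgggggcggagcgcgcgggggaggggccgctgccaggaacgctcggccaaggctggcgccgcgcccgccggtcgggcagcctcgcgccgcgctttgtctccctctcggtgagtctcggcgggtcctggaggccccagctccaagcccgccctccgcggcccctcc
Junb: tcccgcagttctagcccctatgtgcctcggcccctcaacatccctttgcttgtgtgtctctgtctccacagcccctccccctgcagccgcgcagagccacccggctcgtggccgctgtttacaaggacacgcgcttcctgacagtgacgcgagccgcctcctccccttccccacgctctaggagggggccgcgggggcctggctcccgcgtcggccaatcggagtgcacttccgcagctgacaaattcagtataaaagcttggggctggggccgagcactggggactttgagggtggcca

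Promoter windows were matched for 8 of the 10 genes, all but Socs2 and Cebpd. Both strands were searched for TTCNNNGAA, for the C/EBP motif TTNNGCAA, for the AP-1 motif TGANTCA and for the cyclic AMP response element TGACGTCA. The STAT motif was found in 1 of the 8, in Socs3 from base -154 to base -146 relative to the start, and in 8.3% of all 32851 windows. The cyclic AMP response element was found in 1 of the 8, in Jak1 from base -101 to base -94, and in 1.79% of all windows. The C/EBP and AP-1 motifs had 0 matches in the 8 windows and were found in 10.8% and 7.81% of all windows. The windows of Reg3g, Reg3a, Reg3b, Lrg1 and Lifr, genes of the pathway read further below, were searched too. Among them the STAT motif was found only in Reg3b and the C/EBP motif only in Reg3a. A match is a run of letters, and binding was not measured.

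Of the receptor genes, Il6ra encodes the chain that binds interleukin-6. Given in the order of replicates 1, 2 and 3, as below, its intensities were 542.0, 225.4 and 176.6 for the control arrays and 771.1, 807.4 and 242.1 for the CF arrays. CF replicates 1 and 2 were high, and CF replicate 3 lay among the controls, so the groups overlapped. The log2 difference, CF minus control, was 0.93 ± 0.56 (SE, n = 3 per group), with means of 315 ± 198 and 607 ± 316 (SD). It was 0.61 without control replicate 3, 1.42 without control replicate 1 and 1.503 without CF replicate 3.

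Il6st, the gene of gp130, had 2 tested probe sets. The brighter read 584.6, 259.1 and 596.6 in controls and 478.5, 514.4 and 787.9 in CF (log2 difference 0.37 ± 0.37). The other read 445.4, 305.4 and 346.3 against 377.8, 357.0 and 369.7 (0.03 ± 0.25). Control replicate 2 was the lowest array on both, CF replicate 3 was the highest on the first and control replicate 1 on the second, and the groups overlapped on both. Without control replicate 2 both differences had the opposite sign (-0.03 and -0.09), and the dimmer was also slightly negative without control replicate 3 (-0.0029).

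Jak1 encodes a kinase that gp130 receptors need for signalling. It read 884.8, 417.8 and 1108.4 in controls and 742.6, 1056.0 and 914.0 in CF. The CF values lay between control replicates 2 and 3, and the log2 difference of 0.27 ± 0.35 was -0.15 without control replicate 2. Jak2, a kinase shared with the growth hormone receptor, read 380.4, 266.0 and 340.2 against 268.3, 238.3 and 287.3 on the brighter of its probe sets (-0.30 ± 0.28, and -0.19 without control replicate 1). Here CF replicate 2 was the lowest array. Its second probe set, 96488_at, gave 9.7, 14.4 and 15 for controls, under the floor throughout, against 78.5, 35.8 and 50.8 for CF. On that probe set the groups did not overlap and the direction was opposite to that of the brighter one, and 0 of 6 arrays exceeded the filter value.

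Stat3, the transcription factor that gp130 activates, differed little. Probe set 99099_at read 2191.2, 1340.2 and 1244.9 in controls and 2657.7, 2197.7 and 1480.2 in CF (log2 difference 0.41 ± 0.28). Probe set 99100_at read 856.3, 1043.3 and 938.4 against 1052.8, 1362.9 and 1098.1 (0.30 ± 0.19). The groups overlapped on the first and did not on the second, where the lowest CF array exceeded the highest control by 9.5 intensity units. The arrays were also compared in 3 pairs by their titles, of which 2 pairs share a suffix and the first joins the arrays whose titles have none. In each pair the CF array was higher on both probe sets, by 0.23 to 0.71 on the log2 scale. When any 1 array was left out, the differences ran from 0.23 to 0.67 and from 0.19 to 0.38.

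Socs3 encodes the feedback inhibitor of gp130 signalling and is itself induced by STAT3. Its promoter window above holds the STAT motif, as do 8.3% of all windows. Probe set 162206_f_at read 129.0, 54.5 and 201.0 in controls and 491.0, 348.2 and 467.6 in CF. The CF arrays were the 3 highest, and the highest control array was 147.2 below the lowest CF array. The log2 difference was 1.94 ± 0.49, a fold of 3.84 on the floored log2 scale, with means of 128 ± 73 and 436 ± 77. Leaving out control replicate 2 gave 1.42, and leaving out control replicate 3 gave 2.36. The letter f in the name marks probes that can match related sequences. Probe set 92232_at gave 28.5, 28.6 and 21.0 for controls, under the floor throughout, against 66.4, 59.7 and 137.5 for CF, above it throughout, so its direction was the same and no fold is given.

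Socs2 belongs to the same family and chiefly restrains growth hormone signalling. It read 258.9, 175.9 and 225.1 in controls and 277.7, 415.3 and 464.8 in CF (log2 difference 0.80 ± 0.32, fold 1.74). The groups did not overlap, and CF replicate 1 lay 18.8 above control replicate 1.

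The response factor genes are switched on by cytokines and other stimuli. Cebpb, a leucine zipper factor of the acute phase response, read 596.6, 291.6 and 528.9 in controls and 714.0, 1491.3 and 464.3 in CF (log2 difference 0.81 ± 0.44). CF replicate 2 was far above the others and CF replicate 3 was below 2 of the controls. The difference was 0.35 without CF replicate 2, 0.49 without control replicate 2 and 1.19 without CF replicate 3. Its relative Cebpd, a known early target of STAT3, read 785.7, 335.7 and 679.4 against 1333.0, 1064.0 and 803.7 (0.89 ± 0.34, fold 1.85). These groups did not overlap, and the lowest CF array exceeded the highest control by 18. Without control replicate 2 the difference of Cebpd was 0.52.

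Junb encodes an AP-1 subunit that is induced by interleukin-6 in several cell types. Probe set 102362_i_at read 167.9, 111.2 and 80.3 in controls and 515.0, 501.1 and 496.1 in CF. The 3 CF arrays were within 18.9 of each other and at least 328.2 above every control. The log2 difference was 2.14 ± 0.35, a fold of 4.40, and stayed between 1.88 and 2.42 when any 1 array was left out. Probe set 102363_r_at read 719.0, 241.2 and 438.8 against 1007.6, 932.2 and 694.0 (1.03 ± 0.38, fold 2.05), a difference that was 0.63 without control replicate 2. There the groups overlapped, since control replicate 1 exceeded CF replicate 3. The letters i and r in the names mark probe sets for which the array's design rules were relaxed.

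**Figure D2:**
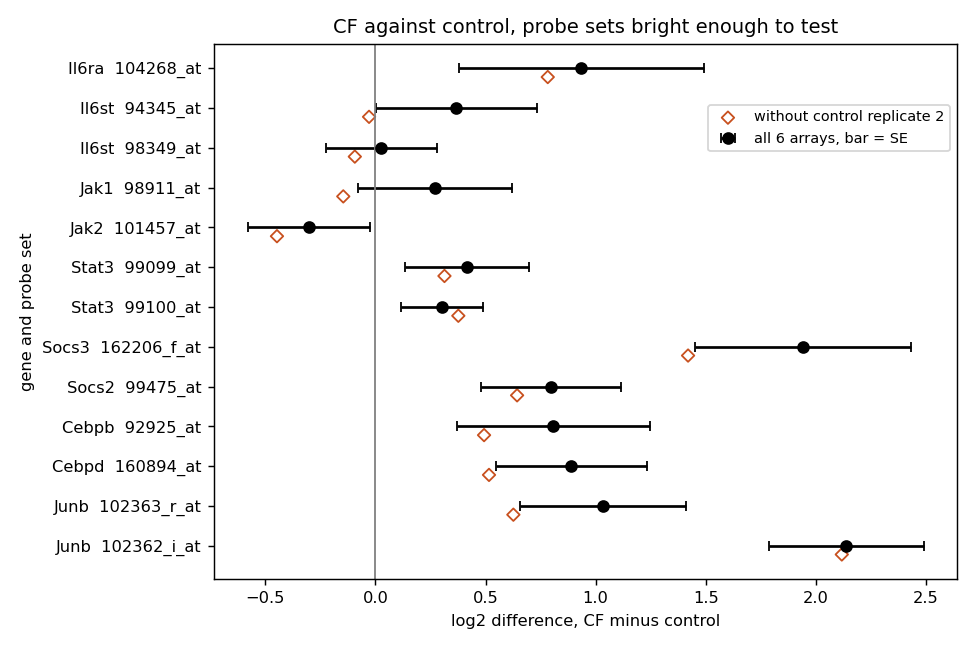
Log2 difference, CF minus control, of the 13 tested probe sets (points, all 6 arrays; bars, SE) and the same difference without control replicate 2 (open diamonds). Junb 102362_i_at is 2.14 with and 2.12 without that array, Socs3 goes from 1.94 to 1.42, and both Il6st probe sets and Jak1 cross 0.

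Over the 13 tested probe sets, 12 had a higher mean in CF and the median log2 difference was 0.80, beside 50.1% higher and a median of 0.00 over all 7739 tested probe sets. In limma with Benjamini-Hochberg adjustment, 0 of the 13 passed an adjusted p of 0.05, beside 0.0646% of all tested probe sets. An unadjusted p under 0.05 was found for 5 of the 13, beside 7.38% of all. With the title suffix as a replicate block, 0 of the 13 passed and 0.129% of all did. In 5 of the 13 the groups did not overlap and CF was higher, beside 7.37% of all, and in 0 of the 13 CF was lower without overlap, beside 5.62% of all. Without control replicate 1 or CF replicate 3 the first of these counts was 9, beside 11.7% and 13.7% of all. Because the genes were chosen with these differences known, the counts only describe them. The Socs3 and Junb probe sets with the largest differences would pass the filter through their CF arrays alone, and Jak2 96488_at and Socs3 92232_at did not pass it.

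The second pair of arrays stood apart. Control replicate 2 was the lowest of the 6 arrays on 8 of the 13 probe sets, beside 22% of all tested probe sets. The difference within the second pair was the largest of the 3 pairs on 12 of the 13, beside 35.4% of all. In 8 of the 13 the CF array was above its paired control array in all 3 pairs, beside 17.8% of all. The ratio of the Gapdh control probe sets at the 3' and 5' ends, a sign of RNA quality, was 1.46 on control replicate 2 and 0.72 to 0.87 on the other 5 arrays. The same ratio for Actb was 2.16 on control replicate 2, 2.14 on CF replicate 2 and 1.74 to 1.94 on the other 4. The part of RNA quality in the differences was not tested. Without control replicate 2 the median of the 13 was 0.49, and without CF replicate 2 it was 0.45.

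**Figure D3:**
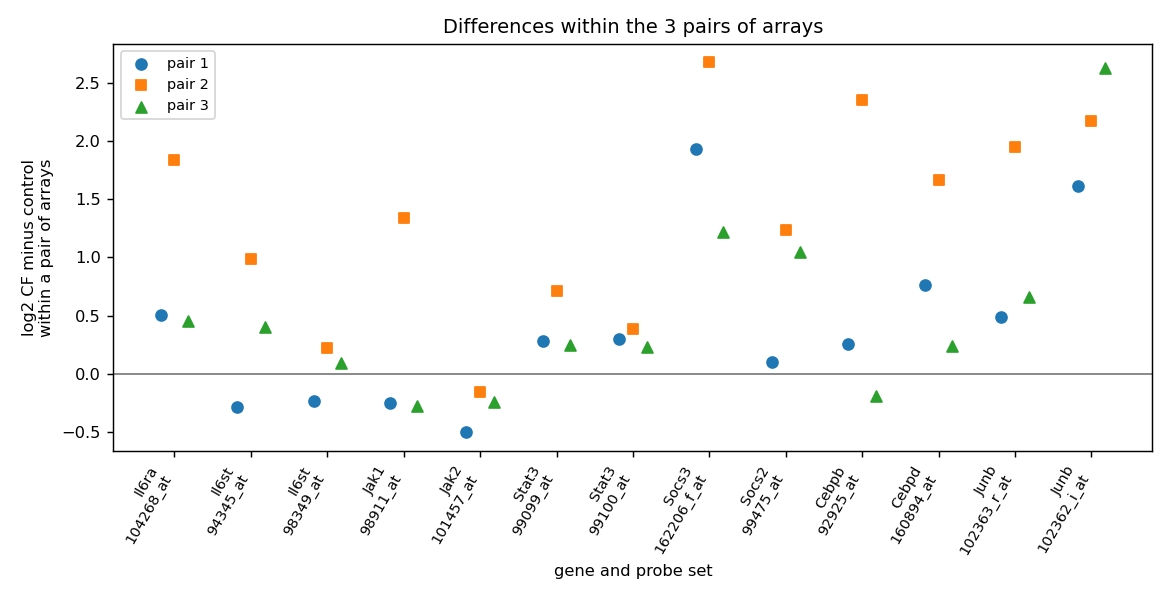
Log2 difference between the CF and the control array within each of the 3 pairs (2 share a title suffix, and the titles of pair 1 have none), for the 13 tested probe sets. Pair 2 is the highest point on 12 of 13, and Junb 102362_i_at is the exception, at 1.62, 2.17 and 2.63 in pairs 1, 2 and 3.

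Markers of cell types were followed because a pancreas holds several. Each sum below adds probe sets of unlike brightness, so it mostly follows its brightest genes and not the list as a whole. The 8 acinar genes with a probe set summed to 506644 to 709321 in controls and 479134 to 530901 in CF, so acinar genes of the labelled tissue were bright on every array. Of the 7 tested, 6 had a lower mean in CF, with a median log2 difference of -0.24. Of 8 adipocyte markers tested, 8 were lower in CF, and the 11 with a probe set summed to 6373 to 21234 in controls and 4740 to 6902 in CF. Of 14 macrophage and granulocyte markers tested, 9 were lower, with sums over 20 genes of 13152 to 19700 and 12172 to 15164. Of these sums C1qb alone gave 5128.7 to 5659.1 in controls and 5573.4 to 7411.7 in CF (log2 difference 0.21 ± 0.15). The dimmer tested C1qb probe set, not part of the sums, went the other way (-0.95 ± 0.71). Of 9 lymphocyte markers tested, 8 were lower, with sums over 13 genes of 7145 to 12868 and 4166 to 8456. Of 6 endothelial markers tested, 5 were lower, with sums over 9 genes of 2177 to 2646 and 1534 to 2318.

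Of 9 duct cell markers tested, 9 were higher in CF, and the 10 with a probe set summed to 14979 to 20337 in controls and 19068 to 23287 in CF. Of these sums Muc1 alone gave 7865 to 11747 in controls and 9437.8 to 11893 in CF (log2 difference 0.13 ± 0.18). The 9 tested include Cftr (0.38 ± 0.29), the gene whose genotype defines the groups, so its value cannot stand for duct cells here. Of 7 islet markers tested, 4 were higher, with sums over 8 genes of 19140 to 77523 and 22325 to 59407. In each of these 7 lists 0 values were at 0, and 0 genes passed the adjusted threshold. Most duct markers had higher, and most acinar, adipocyte, endothelial and blood cell markers lower, means in CF in the same arrays as Socs3, Junb and Cebpd were higher, and the part of cell make-up in these differences was not tested.

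The other genes of the pathway were read from lists by role, with 1 probe set per gene. Of 55 tested genes, 34 had a higher mean in CF, the median log2 difference was 0.13, and 2, both Reg genes, rose past an adjusted p of 0.05 (limma), while 0 fell. Over all 5804 named genes the median was 0.00 and 3 rose, among them these 2. The Reg genes were placed on their list with their values known, so 2 of 55 beside 3 of 5804 only describes the list.

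Of the cytokines, Ctf1 differed by 0.28 ± 0.31 and Ebi3, a subunit of interleukin-27, by 0.53 ± 0.52. Il6, named after its values were seen, gave 16 to 19.6 for controls against 10.4 to 16.6 for CF, and Il11 19.1 to 26.0 against 20.8 to 34.5, each under the floor. At this brightness a difference in either could not be seen.

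Among receptors of the family, 0 of 3 tested genes passed. Lifr, the chain that pairs with gp130 for leukaemia inhibitory factor, read 3351.1, 3551.8 and 4188.8 in controls and 4404.8, 6413.8 and 5685.4 in CF on its brightest probe set (log2 difference 0.56 ± 0.18, adjusted p = 0.51 in limma). All CF arrays were above all control arrays there and on 2 further Lifr probe sets (0.77 ± 0.24 and 1.04 ± 0.31), and the groups overlapped on the remaining pair (0.38 ± 0.23 and 0.42 ± 0.47). Osmr, the oncostatin M receptor chain, was also without overlap, at 290.8, 151.2 and 248.3 against 351.8, 378.9 and 306.7 (0.63 ± 0.33). Il27ra differed by -0.42 ± 0.19.

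Of 3 tested receptors outside the family that can activate STAT3, 0 passed. Egfr, the epidermal growth factor receptor, read 575.7, 536.8 and 646.1 in controls and 835.6, 809.8 and 709.3 in CF (0.42 ± 0.19, adjusted p = 0.69 in limma), without overlap. On its other probe sets Egfr differed by 0.34 ± 0.27 and 1.47 ± 0.55, also without overlap. On the latter, only the CF arrays exceeded the filter value. Csf3r and Il10rb differed by -0.30 ± 0.21 and 0.17 ± 0.23. The dimmer tested Csf3r probe sets gave 0.68 ± 0.66 and -0.10 ± 0.45. Among 4 other JAK and STAT genes 0 passed, with Jak3 at 0.28 ± 0.19, Stat5a at 0.25 ± 0.17, Tyk2 at 0.12 ± 0.20 and Stat6 at 0.01 ± 0.30.

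Of 7 other negative regulators, 7 had a higher mean in CF and 0 passed. Ptpn2, a phosphatase that removes phosphate from JAK and STAT proteins, read 111.2, 100 and 104.6 in controls and 211.1, 256.5 and 192.3 in CF (1.05 ± 0.39, adjusted p = 0.61 in limma). Its groups did not overlap, and only its CF arrays exceeded the filter value. Cish, Pias2 and Ptpn1 each differed by 0.14, with SEs of 0.18, 0.19 and 0.21. Socs1, too dim to be tested, read 69.0, 179.1 and 288.1 against 120.4, 102.4 and 99.3, with overlap between the groups.

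In the growth hormone axis, which Socs2 restrains, 0 of 6 genes passed. The receptor gene Ghr read 1478.4, 800.2 and 1364.2 in controls and 951.4, 527.5 and 533.4 in CF (-0.86 ± 0.32, adjusted p = 0.60 in limma), with control replicate 2 below CF replicate 1. On the dimmer Ghr probe set CF was lower without overlap (-0.38 ± 0.21). Igf1, a target of growth hormone, differed by 0.33 ± 0.17, Igfbp3 by 0.94 ± 0.60 and Gh by 0.14 ± 0.20. On the dimmer Igf1 probe set CF was higher without overlap (0.45 ± 0.20).

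Among 23 tested genes known as STAT3 targets, 2 rose, 0 fell, and the median log2 difference was -0.02. The Reg genes and Lrg1 were placed on this list with their values known. Reg3g, an antibacterial lectin, read 736.0, 92.4 and 883.1 in controls and 35523, 37400 and 36713 in CF (6.54 ± 0.72, adjusted p = 0.021 in limma). Reg3a, a lectin of the same family, read 11860, 7835.1 and 19223 against 63973, 80716 and 78220 (2.61 ± 0.29, adjusted p = 0.021 in limma). Both calls ended without CF replicate 1, 2 or 3, at adjusted p-values of 0.14, 0.15 and 0.062 for Reg3g and 0.12, 0.15 and 0.063 for Reg3a, and that of Reg3a also without control replicate 1 (0.066). The second Reg3g probe set held its call without each of these arrays, at adjusted p-values of 0.00057 to 0.0040. With no filter on dim probe sets both calls ended (0.33 and 0.32), as did that of the second Reg3g probe set (0.098), and with no intensity trend the first 2 also ended (0.082 for each). Robust variance estimation ended the first Reg3g call (0.075). The second, dimmer Reg3a probe set was also called, with a larger difference (4.72 ± 0.48, adjusted p = 0.0195 in limma). It held its call without control replicate 1 (adjusted p = 0.043) and without CF replicate 3 (0.049). Its call ended without CF replicate 1 or 2 (0.12 for each), with no filter (0.31) and with no intensity trend (0.067).

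Of the targets next by p, Lrg1, a secreted glycoprotein, read 985.1, 63.9 and 535.4 in controls and 22780, 32911 and 12378 in CF (6.02 ± 0.87, adjusted p = 0.068 in limma). It passed without control replicate 1 (6.83, adjusted p = 0.042) and without control replicate 2 (4.85, adjusted p = 0.0064). With all 6 arrays it passed with array medians set equal (adjusted p = 0.044), with the floor at the 40th percentile (0.014) and with array weights (0.028). Reg3b, a further Reg lectin, differed by 0.61 ± 0.16 on its brighter probe set and by 2.05 ± 0.31 on the other (adjusted p = 0.077 in limma), both without overlap. Mcl1, which protects cells from apoptosis, and Hamp, the iron hormone hepcidin, differed by -0.75 ± 0.32 and -1.18 ± 0.51. Other targets were looked up after their values were seen. The plasma protein gene Hp differed by -1.03 ± 0.45, the serum amyloid gene Saa2 by 0.02 ± 0.52, Myc by 0.26 ± 0.43 and the kinase gene Pim1 by 0.44 ± 0.23. Lcn2, an iron-binding antibacterial protein, differed by -0.17 ± 0.28 on its brighter probe set, while its other, too dim to be tested, read 25.6, 9.5 and 18 in controls and 295.9, 485.7 and 26.1 in CF.

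The relatives of the response factors were read beside them. Of 5 other AP-1 genes tested, 0 passed, and Jund, another AP-1 subunit, read 4920.0, 6282.8 and 5479.0 in controls and 3643.1, 2872.8 and 4462.7 in CF (-0.62 ± 0.19, adjusted p = 0.47 in limma). Its CF arrays were all below its control arrays. Fosl2, Fosb and Fos differed by 0.39 ± 0.29, 0.14 ± 0.43 and -0.18 ± 0.78. Of 3 other C/EBP genes, 0 passed, with Cebpa at -0.62 ± 0.38, Cebpg at -0.20 ± 0.29 and Ddit3 at 0.44 ± 0.65. Whether these genes differ from Junb, Cebpb and Cebpd in their response was not tested.

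**Figure D4:**
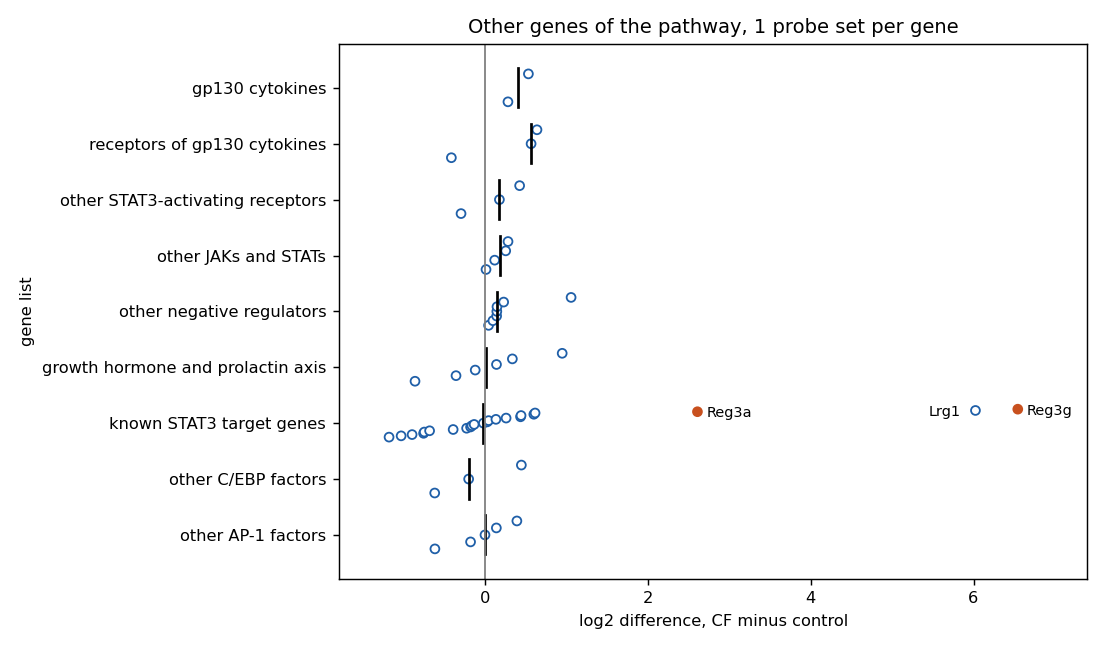
Log2 difference, CF minus control, of the tested genes of 9 lists by role, 1 probe set per gene (points; filled where the adjusted p was under 0.05), with the median of each list (black bars) and of all named genes (grey line). Reg3g at 6.54 and Reg3a at 2.61 are filled, Lrg1 at 6.02 is open, and the remaining genes lie between -1.18 and 1.05.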

How the data were processed

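The deposited values are linear intensities, 1 per probe set and array; the authors' software and steps are not stated in the labels. Means trimmed by 2% at each end were 500.27 to 500.3 on every array, and no further scaling was applied. Groups came from the genotypes in the sample descriptions, replicate numbers from the title suffixes (none, B and P). Intensities were raised to a floor, the 20th percentile over all arrays (47.6), before log2. Without the 66 control probe sets, 7739 probe sets above the pooled 40th percentile (140.2) on at least 3 of 6 arrays were tested across all in limma 3.58.1 (R 4.3.3), with an intensity trend and Benjamini-Hochberg adjustment. The fit was checked on simulated data. No detection calls were used.

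Of the 12488 probe sets, 10855 had 1 gene symbol, 396 several and 1237 none; 10839 were matched to RefSeq names. Deviations from group means correlated at 0.23 to 0.26 between arrays with the same suffix or both with none, and -0.18 to -0.048 otherwise, and the arrays were regarded as paired. Deviations cancel out over the 3 arrays of a group, so the negative correlations follow in part from the positive ones. Values come from the fit without a block unless the replicate block is named, so their SEs and p-values leave the pairing out. With the block, the SE of Il6ra was 0.33 in place of 0.56 and that of Socs3 162206_f_at 0.38 in place of 0.49. That of Cebpb was 0.48 in place of 0.44. The genes, lists and motifs were chosen with earlier results of these data known. Named genes were every probe set of the 10 genes and, of each pathway list, genes past the threshold and up to 4 others of smallest p, on the probe set of highest mean. For some of them other probe sets are given too. Named outside this rule were the untested Il6, Il11 and Socs1, the targets Hp, Saa2, Myc, Pim1 and Lcn2, and the markers C1qb, Muc1 and Cftr.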

Additional observations from a re-analysis of the deposited data

How the results depend on the processing

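Over 16 alternatives, the differences of the 13 tested probe sets of the 10 genes kept their direction and side of the threshold in 200 of 206 comparisons. This tally says little about stability. Other filters, no intensity trend, robust variance and the replicate block change only the SE or the probe sets tested, so no direction could turn. The floor at the 10th percentile also left these differences unchanged. Since 0 of the 13 passed with the main settings, a side could change only by a new pass. The direction turned for the dimmer Il6st probe set with array weights (-0.042). Leaving out 1 array gave ranges of -0.029 to 0.57 and -0.094 to 0.18 for the Il6st probe sets and of -0.15 to 0.56 for Jak1. With the floor at the 40th percentile, 1 of the 13 passed, Junb 102362_i_at (1.76 in place of 2.14, adjusted p = 0.047 in limma). With that floor the difference of Socs3 162206_f_at was 1.45 in place of 1.94. Without 1 array, the count of the 13 higher in CF without overlap ran from 5 to 9.

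Over all probe sets, 5 were called higher. The number was 8 with array medians set equal, 3 with no intensity trend, 10 with the floor at the 40th percentile, with array weights and with the replicate block, and 0 of 12422 with no filter. It ran from 1 to 10 without 1 array. The number called lower was 2 with array weights and ran from 0 to 4 without 1 array. Of the pathway list genes, 2 were called; 0 were with no filter and with no intensity trend, 1 with robust variance, 3 with array medians set equal, with the floor at the 40th percentile and with array weights, and 0 to 3 without 1 array. The cause of these moves was not tested. Signal over background limits Il6, Il11, Socs3 92232_at and Jak2 96488_at.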
